A study of Mus musculus with 3 samples.

Results

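The genes described here encode 5 transcription factors that mark or specify subsets of regulatory T cells (Treg cells) in the intestine: Gata3, Rora, Maf, Tbx21 and Bcl6. The mark measured over them was H3K36me3, histone H3 trimethylated on lysine 36. Members were chosen by name, and their peaks were those of the deposited peak set whose midpoint lies in the annotated body of the gene. This gave 90 of 120910 peaks: 11 in Gata3, 57 in Rora, 15 in Maf, 3 in Tbx21 and 4 in Bcl6. The 5 genes are among 10020 protein-coding genes with at least 1 peak.

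Treg cells are CD4 T cells that restrain immune responses and are defined by the factor Foxp3. In the gut they divide into subsets that add a second transcription factor to Foxp3, often one shared with the helper T cells they hold in check. H3K36me3 is written by the methyltransferase Setd2, which travels with elongating RNA polymerase, so the mark usually lies over the bodies of transcribed genes and is sparse at their starts.

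To see how the mark is distributed in Treg cells of different sites, the study profiled H3K36me3 by chromatin immunoprecipitation sequencing (ChIP-seq) in Treg cells sorted from both the spleen and the large intestine. Both libraries came from C57BL/6 mice whose genotype is labelled Foxp3-YFP, that is, mice with a Cre recombinase and yellow fluorescent protein (YFP) expressed from the Foxp3 locus, at steady state and without treatment, and their age is not given in the labels. CD3+CD4+YFP+ cells of 7 female and 7 male mice were pooled, and each tissue had 1 library, made with the antibody Active Motif 61101. An input library of splenic chromatin was used by the authors for peak calling and was not analysed here. With 1 library per tissue, every difference below is between a pair of libraries, has no replicate check and carries no p-value. Whether a larger share of marked cells or more mark per cell lies behind a difference in such bulk samples cannot be told apart.

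Values are mean coverage per peak in RPKM (reads per kilobase, scaled to the mapped reads of the library), with the large intestine scaled to the total of the spleen over all peaks. From the smallest steps of the values, the spleen library came to about 29600000 mapped reads and the large intestine library to about 38100000. A stretch is in the set when a peak was called in either tissue, and each peak has a value in both libraries. The Treg markers Foxp3, Il2ra, Ctla4, Ikzf2, Cd4 and Cd3e all had peaks, and their levels ran from 5.25 to 20.1 RPKM per base of gene body in spleen and from 3.80 to 17.4 in large intestine. The B cell gene Ms4a1, the myeloid genes Lyz2, Itgam, Cd14 and Spi1, the CD8 gene Cd8a and the natural killer genes Ncr1 and Klrb1c had no peak in the merged set. The summed value of the 4 B cell markers was 63.6 RPKM in the spleen and 38.7 in large intestine (3 with peaks), that of the 5 myeloid markers 14.7 and 15.8 (1 with a peak), and that of the 4 CD8 and natural killer markers 21.1 and 9.16 (1 with peaks). Of 7 intestinal epithelium markers 3 had peaks (Epcam, Lgals4 and Vil1), with a summed value of 55.1 RPKM in the spleen and 90.9 in large intestine, while Krt8, Krt20, Cdx2 and Muc2 had none.

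Some letters of the regions that carry the results are given first, read 5′ to 3′ on the strand of the gene from the GRCm38 (mm10) assembly. Rora has 2 annotated starts of protein-coding transcripts, and every peak of the gene lay past the second of them. The windows at both starts are shown because this division runs through all Rora results. Each holds 250 bases before the start in lower case and the first 30 transcribed bases in capitals, at chr9:68653536-68653815 for the distal start and chr9:69289432-69289711 for the internal start, both on the plus strand.
Rora distal start: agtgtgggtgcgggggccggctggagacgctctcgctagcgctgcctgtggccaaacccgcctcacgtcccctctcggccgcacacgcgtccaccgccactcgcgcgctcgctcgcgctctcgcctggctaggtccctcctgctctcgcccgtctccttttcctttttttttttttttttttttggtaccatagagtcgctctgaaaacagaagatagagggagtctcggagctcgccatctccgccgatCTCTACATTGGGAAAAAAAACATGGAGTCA
Rora internal start: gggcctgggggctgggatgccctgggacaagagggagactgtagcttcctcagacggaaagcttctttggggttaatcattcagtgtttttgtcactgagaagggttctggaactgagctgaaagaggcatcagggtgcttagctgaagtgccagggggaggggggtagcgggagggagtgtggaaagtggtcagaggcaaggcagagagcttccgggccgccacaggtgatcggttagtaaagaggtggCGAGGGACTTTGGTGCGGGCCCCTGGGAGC
The windows had nearly the same G+C content, 58.6% at the distal and 58.9% at the internal start, but 26 CG dinucleotides at the distal start against 7 at the internal one.

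The next stretches are coding sequence inside peaks of the 5 genes, shown because the difference between the tissues is described at these peaks. Gata3 exon 4 (chr2:9868761-9868906, minus strand) and exon 5 (chr2:9863095-9863220, minus strand) each encode a GATA zinc finger, in capitals, found in the translated sequence as paired cysteines 17 residues apart. These exons lie in peaks on opposite sides of the point in Gata3 past which most peaks were no longer higher in the large intestine. Rora exon 2 of the shorter transcript (chr9:69348132-69348217, plus strand) encodes the first zinc finger of the nuclear receptor, in capitals. The Maf stretch (chr8:115705820-115705969, minus strand) has the leucine heptads of the zipper in capitals and lies in the Maf peak with the largest ratio.
Gata3 exon 4: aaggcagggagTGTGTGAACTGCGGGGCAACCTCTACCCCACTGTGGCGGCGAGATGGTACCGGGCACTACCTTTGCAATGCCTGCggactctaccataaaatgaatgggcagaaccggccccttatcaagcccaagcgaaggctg
Gata3 exon 5: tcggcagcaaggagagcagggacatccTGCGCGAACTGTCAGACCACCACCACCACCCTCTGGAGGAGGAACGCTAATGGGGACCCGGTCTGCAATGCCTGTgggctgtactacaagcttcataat
Rora exon 2: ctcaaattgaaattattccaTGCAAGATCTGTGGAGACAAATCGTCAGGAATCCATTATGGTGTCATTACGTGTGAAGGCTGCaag
Maf exon 1: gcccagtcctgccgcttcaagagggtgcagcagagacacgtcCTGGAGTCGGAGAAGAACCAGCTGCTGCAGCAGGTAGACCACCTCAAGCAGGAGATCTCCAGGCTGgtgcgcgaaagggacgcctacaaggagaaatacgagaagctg
For the other two genes the stretches come from peaks that were not higher in the large intestine. The Tbx21 stretch (chr11:97099897-97100115, minus strand) has the exon, a piece of the T-box, in capitals and 30 intron bases on each side in lower case. Bcl6 exon 7 (chr16:23969906-23970073, minus strand) has 2 C2H2 zinc fingers in capitals.
Tbx21 exon 4: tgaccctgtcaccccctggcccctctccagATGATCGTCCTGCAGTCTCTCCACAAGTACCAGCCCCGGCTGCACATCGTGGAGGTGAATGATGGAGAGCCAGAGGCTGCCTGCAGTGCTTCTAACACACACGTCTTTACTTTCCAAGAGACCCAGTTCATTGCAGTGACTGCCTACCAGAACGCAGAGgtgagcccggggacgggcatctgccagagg
Bcl6 exon 7: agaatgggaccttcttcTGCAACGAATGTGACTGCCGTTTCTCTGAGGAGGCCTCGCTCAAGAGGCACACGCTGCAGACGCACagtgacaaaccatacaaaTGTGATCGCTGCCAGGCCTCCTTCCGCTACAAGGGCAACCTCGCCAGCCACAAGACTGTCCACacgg

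Rora and Maf carried more than 2-fold more H3K36me3 in Treg cells of the large intestine than in those of the spleen, while the summed values of Gata3, Tbx21 and Bcl6 differed by less than 1.5-fold. Of the 9425 protein-coding genes with at least 20 RPKM summed over both libraries, 300 (3.18%) were more than 2-fold higher in the large intestine and 171 (1.81%) more than 2-fold higher in the spleen. Past 1.5-fold, these numbers were 845 genes (8.97%) and 525 genes (5.57%). Thus 2 of the 5 members were past 2-fold toward the large intestine and 0 toward the spleen. The median log2 ratio was 0.00 over all tested genes, and their middle range from the first to the third quartile ran from -0.20 to 0.23.

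Peak by peak, 79 of the 90 member peaks were higher in the large intestine, against 49.0% of all peaks in the set. More than 2-fold higher there were 44 of the 90, against 9.03% of all peaks. No member peak was more than 2-fold higher in the spleen, where 9.58% of all peaks were. Rora and Maf hold 70 of the 79 and 42 of the 44 peaks, and peaks of a gene share its transcription unit, so they are not independent of each other. A peak called in a single tissue is also in the set, so weak peaks can enter through the tissue where they are higher. Counts of peaks by direction, here and below, are therefore a description and not separate evidence of a difference.

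**Figure D1:**
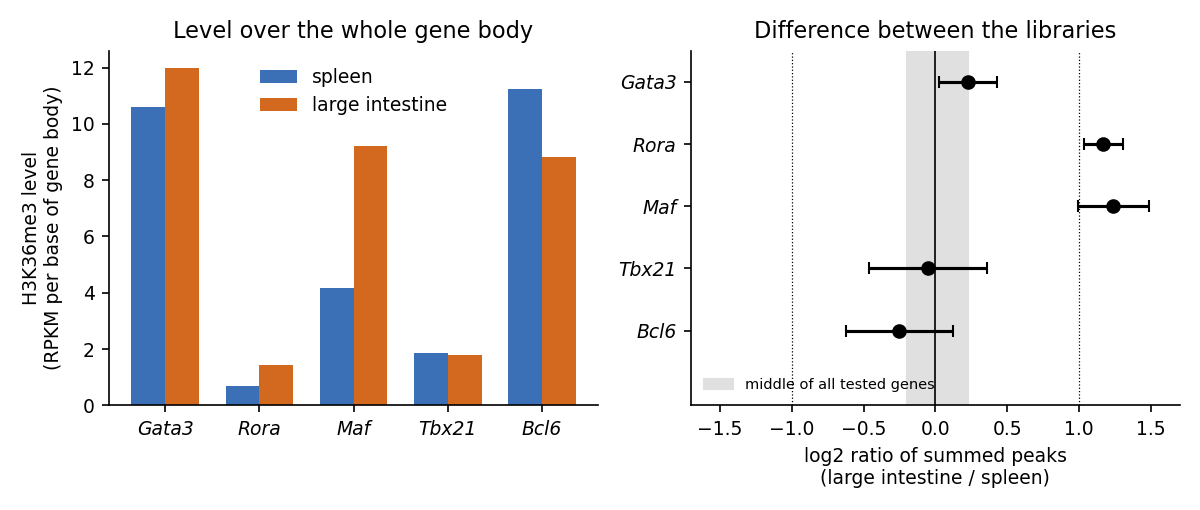
Left, H3K36me3 level of each gene as RPKM per base of the whole annotated gene body, with uncalled stretches counted as 0, in the spleen (blue) and large intestine (orange) libraries. Right, log2 ratio of the summed peaks with its approximate 95% counting interval; the grey band is the range from the first to the third quartile of 9425 genes and the dotted lines mark 2-fold. Rora (1.17) and Maf (1.24) lie past the 2-fold line, Gata3 at the edge of the grey band, and Tbx21 and Bcl6 at or below 0.

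The levels themselves, per base of the whole gene body and with uncalled stretches counted as 0, ordered the genes differently in the libraries. In spleen, Bcl6 had 11.2 RPKM per base, Gata3 10.6, Maf 4.17, Tbx21 1.86 and Rora 0.693. In large intestine, Gata3 had 11.996 RPKM per base, Maf 9.20, Bcl6 8.83, Tbx21 1.80 and Rora 1.45. The approximate 95% counting intervals of Bcl6 (10.4 to 12.04) and Gata3 (9.92 to 11.3) overlapped in spleen, and so did those of Maf (8.57 to 9.83) and Bcl6 (8.20 to 9.46) as well as Tbx21 (1.47 to 2.13) and Rora (1.40 to 1.49) in large intestine. These intervals, like all intervals given below, take each read as covering 200 bp and hold counting error only. Maf thus passed from a level below that of Bcl6 in spleen to one that could not be separated from it in large intestine.

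Rora encodes RORα, a nuclear receptor of the ROR family that acts in type 2 innate lymphoid cells, helper T cells and tissue Treg cells. Its summed peak value was 331 RPKM in the spleen and 743 RPKM in the large intestine, a log2 ratio of 1.17 with an approximate 95% counting interval of 1.03 to 1.30, or 2.25-fold. The ratio was above that of 97.7% of tested genes. Of its 57 peaks, 56 were higher in the large intestine and 35 were more than 2-fold higher. Among tested genes with at least 10 peaks, 6.16% had at least 90% of their peaks higher in the large intestine.

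The Rora peaks all lay in the last part of the annotated gene (ENSMUSG00000032238.17, chr9:68653786-69388246, plus strand). The long transcript starts 635896 bp before the short one, and this stretch, 86.6% of the gene body with the first 2 exons of the long transcript in it, held 0 peaks. In the remaining 98565 bp after the internal start, peaks covered 65.9% of the bases. The first of them began 859 bp past the internal start. Over this stretch alone the level was 5.16 RPKM per base in the spleen and 10.8 RPKM per base in large intestine, so the low value of Rora over its whole body comes from bases before the internal start. No value is listed where no peak was called, and a mark below the calling threshold there was not measured.

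**Figure D2:**
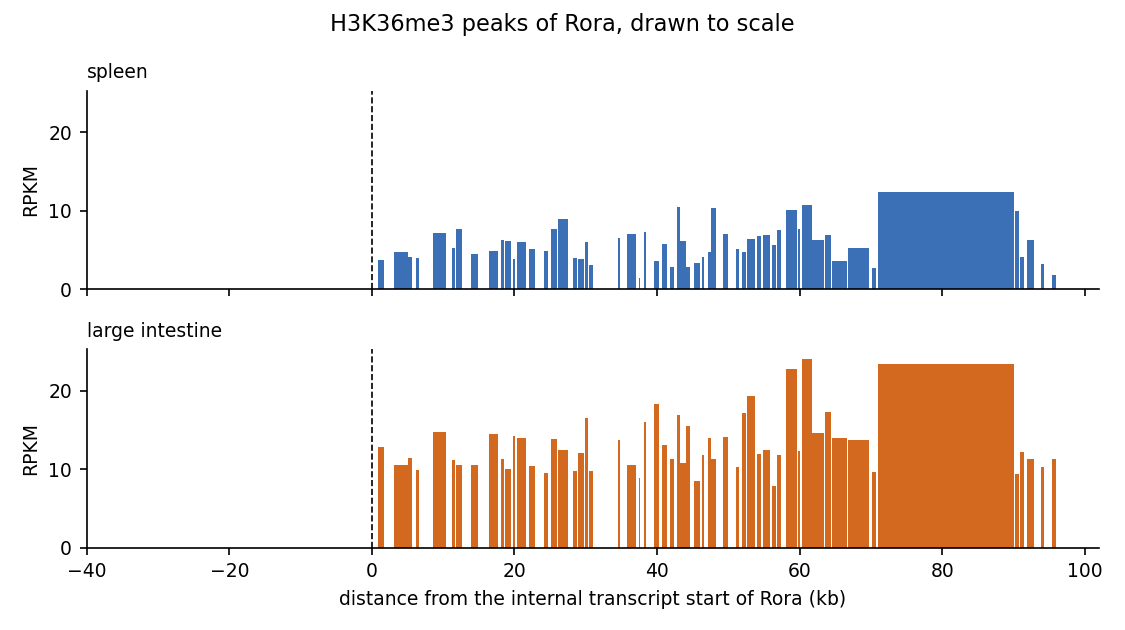
The 57 Rora peaks in spleen (top) and large intestine (bottom), each bar as wide as its peak and as high as its value in RPKM, by distance in kb from the internal transcript start (dashed line). No peak was called in the 635896 bp before the line, and after it the bars in the large intestine are higher for 56 of 57 peaks.

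After the internal start the difference was spread over the whole transcribed stretch. The first intron of the short transcript held 43 peaks, all 43 higher in the large intestine. Their values had a median of 5.23 RPKM in spleen (range 1.45 to 10.5) and 11.9 RPKM in the large intestine (range 7.84 to 19.3), so the ranges overlapped although every peak had the same sign. This shared sign has the limit given above for peaks called in a single tissue. The second intron held 7 peaks, with a median of 6.27 RPKM in the spleen and 14.02 RPKM in the large intestine.

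The peak over exon 2 (chr9:69347712-69349288), which holds the zinc finger letters shown above, had 10.1 RPKM in the spleen and 22.8 RPKM in the large intestine, a log2 ratio of 1.14. The longest peak, 19114 bp over exons 3 to 10 at chr9:69360629-69379742, had 12.4 RPKM in the spleen and 23.5 RPKM in the large intestine, a log2 ratio of 0.89 (0.76 to 1.02). That peak ends near the end of the short transcript. The single Rora peak that was not higher in the large intestine came right after it, at chr9:69379937-69380513 in the 3′ untranslated part of the long transcript, with 10.01 RPKM in the spleen and 9.39 RPKM in the large intestine, and the other 4 peaks past the short transcript were all higher in the large intestine. The correlation of ratio with position over the 57 peaks was near 0 (r = 0.04). The antisense gene Gm15511 overlaps 9 of the peaks, and without them the summed log2 ratio was 1.16.

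Outside the gene the difference did not continue. No peak lay within 20 kb of either end of Rora. Ice2, which encodes a subunit of the little elongation complex and starts 9660 bp past the end of Rora on the same strand, had 189 RPKM in the spleen and 124 RPKM in the large intestine, a log2 ratio of -0.61 (-0.92 to -0.29), and 3 of its 19 peaks were higher in the large intestine. Vps13c, the coding gene on the upstream side at a distance of 658148 bp, had 977 RPKM in the spleen and 950 RPKM in the large intestine (-0.04). The Rora ratio therefore stood between neighbours with ratios of the opposite sign or near 0.

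Maf encodes c-MAF, a basic leucine zipper factor that promotes IL-10 in T cells and acts in intestinal and follicular Treg cells. Its summed peak value was 89.1 RPKM in the spleen and 211 RPKM in the large intestine, a log2 ratio of 1.24 (interval from 0.99 to 1.48), or 2.36-fold. The ratio was above that of 98.0% of tested genes. Of its 15 peaks, 14 were higher in the large intestine and 7 were more than 2-fold higher. The lower end of the interval lies just under 2-fold.

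Maf (ENSMUSG00000055435.6, chr8:115682942-115707794, minus strand) carried peaks from its first exon to its last, over 64.6% of its body. The peak that holds the zipper letters (chr8:115705176-115706169) had 4.01 RPKM in the spleen and 26.0 RPKM in the large intestine, a log2 ratio of 2.56 (1.74 to 3.37), the largest of all 90 member peaks. The peak just 5′ of it (chr8:115706423-115707054), which takes in the start codon, had 5.91 RPKM in the spleen and 22.2 RPKM in the large intestine (1.83). In the large intestine these were the highest values of the gene, while in spleen they were within the range of its introns. The first intron held 8 peaks, with medians of 5.22 RPKM in the spleen and 11.5 RPKM in the large intestine.

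The one Maf peak that was not higher in the large intestine lay in that intron (chr8:115699289-115700222), with 10.003 RPKM in the spleen and 8.43 RPKM in the large intestine. At the other end, the peak over the last exon (chr8:115683481-115684963) had 6.88 RPKM in the spleen and 20.2 RPKM in the large intestine, a log2 ratio of 1.49. In 5 equal parts of the body from the 5′ end, the level per base was 2.07, 4.28, 4.11, 6.86 and 3.61 RPKM in the spleen and 9.76, 6.87, 8.26, 12.2 and 9.08 RPKM in the large intestine. The first part thus had the lowest level of the gene in spleen and the second highest in large intestine, with a log2 ratio of 1.996 against 0.62 to 1.22 in the other 4.

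**Figure D3:**
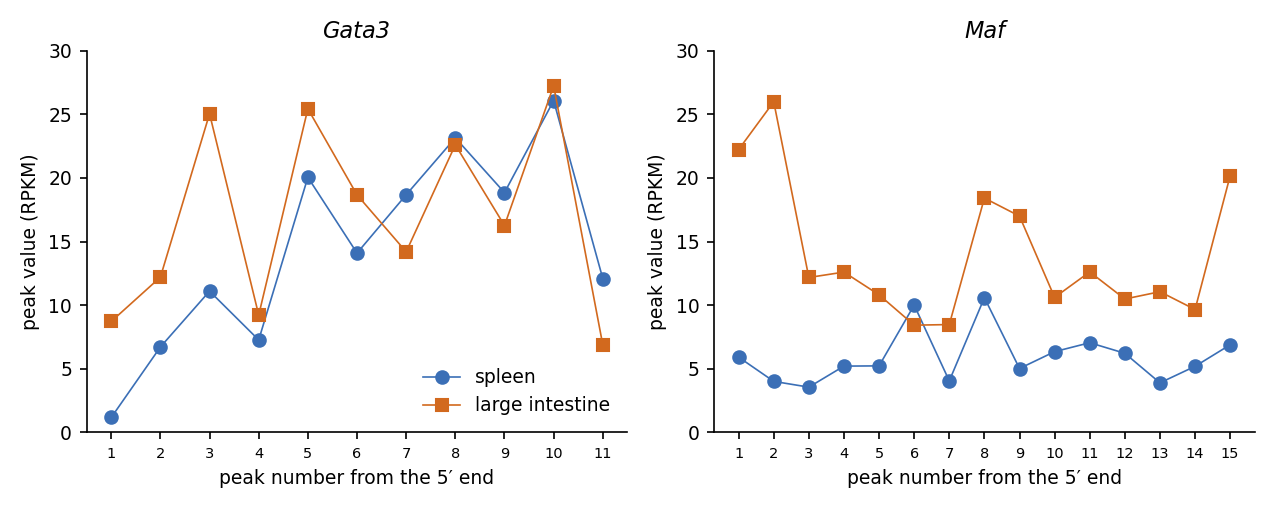
Value of each peak in RPKM in the spleen (circles) and large intestine (squares) libraries, with peaks numbered from the 5′ end of Gata3 (11 peaks) and Maf (15 peaks). In Maf the libraries are widest apart at peaks 1 and 2 and cross only at peak 6; in Gata3 they are apart at peaks 1 to 3 and close from peak 8 to peak 10.

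The antisense gene Gm15655 overlaps the first 2 Maf peaks, and ChIP-seq does not assign signal to a strand. Without them the Maf log2 ratio was 1.03. The 3 peaks within 20 kb past the end of Maf (27.9 RPKM summed in large intestine, 12.3 in spleen) and the 2 peaks within 20 kb before its start (18.8 and 8.72) were also all higher in the large intestine. The nearest coding genes lay farther off: Wwox, 330234 bp away, had 62.3 RPKM in the spleen and 89.5 RPKM in the large intestine (0.52), and Dynlrb2 had no peak.

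Gata3 encodes the zinc finger factor that specifies type 2 helper T cells and marks the ST2+ Treg cells of tissues, many of them thymus-derived. Its summed peak value was 159 RPKM in the spleen and 186 RPKM in the large intestine, a log2 ratio of 0.23 (interval from 0.03 to 0.43), or 1.17-fold. The ratio was above that of 75.0% of tested genes and at the third quartile of all of them. Of the 11 peaks 7 were higher in the large intestine, 2 of them more than 2-fold.

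The small sum joined a 5′ stretch that was higher in the large intestine and a 3′ stretch that was not. Gata3 (ENSMUSG00000015619.10, chr2:9857078-9890034, minus strand) had log2 ratios from 0.32 to 2.47 in its first 6 peaks, all 6 higher in the large intestine. The last 5 peaks had ratios from -0.77 to 0.06, with 1 of 5 higher there. Of the 11 peaks, 3 had an interval above 0, all among the first 6, and 1 had an interval below 0. The lowest ratio, at the last peak, had an interval from -2.17 to 0.63. The peak over exon 2, which holds the start codon (chr2:9876540-9877783), had 11.1 RPKM in the spleen and 25.05 RPKM in the large intestine, a log2 ratio of 1.14 (0.62 to 1.65).

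The same change along the gene is seen at the exons of the zinc fingers, where the interval of the exon 5 peak included 0. The peak over exon 4 (chr2:9867578-9872334) had 14.1 RPKM in the spleen and 18.7 RPKM in the large intestine (0.39, 0.14 to 0.65), and the peak over exon 5 (chr2:9861136-9863891) had 23.2 RPKM in the spleen and 22.6 RPKM in the large intestine (-0.03, -0.31 to 0.25). Between them, the peak of intron 4 (chr2:9864106-9867092) was higher in the spleen, with 18.7 RPKM against 14.2 RPKM (-0.38, -0.70 to -0.07). The highest values of the gene, at the last coding exon (chr2:9857906-9860591), were 26.1 RPKM in the spleen and 27.2 RPKM in the large intestine. In spleen the long peaks over exons 3, 5 and 6 had 20.05 to 26.1 RPKM and that over exon 2 had less, whereas in large intestine the peaks over exons 2, 3, 5 and 6 all had between 22.6 and 27.2 RPKM.

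Of 5 equal parts of the annotated body from the 5′ end, the first held no peak, and the others had 1.82, 15.2, 15.0 and 21.7 RPKM per base in the spleen and 4.23, 20.05, 14.8 and 21.5 RPKM per base in large intestine. The mean over all tested genes had log2 ratios between 0.03 and 0.08 in every part. Across the 11 peaks the correlation of ratio with position was r = -0.84, and r = -0.85 over the 10 peaks left without the first. As a description, 5 of 3831 tested genes with at least 10 peaks (0.131%) had a correlation below -0.8, a value chosen after Gata3 had been seen. G+C content also fell along the gene, from between 45.3% and 58.0% in the first 6 peaks to between 37.5% and 48.0% in the last 5. After correction for G+C content, the first 6 peaks had ratios from 0.17 to 2.24 and the last 5 from -0.27 to 0.01. The correlation was then r = -0.796, no longer below -0.8, and 3 of the 3831 genes lay below -0.8 after the same correction.

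Other genes overlap the 5′ stretch of Gata3. The first peak (chr2:9882358-9882597) lies in the annotated gene body but upstream of the full-length coding transcript used for the exon numbers. It is inside 4930412O13Rik on the other strand. This peak had 1.17 RPKM in the spleen and 8.72 RPKM in the large intestine, and its log2 ratio of 2.47 had an interval that reached -0.01. The next 2 overlap the antisense gene Gm13256. Without these 3 peaks the Gata3 log2 ratio was 0.0026. Past the 3′ end, the 2 peaks within 20 kb were lower in the large intestine (27.2 RPKM summed in spleen, 15.6 in large intestine). Celf2, the next coding gene on that side, lay about 2347520 bp away, too far to describe the stretch next to Gata3. Celf2 had 829 RPKM in the spleen and 740 RPKM in the large intestine (-0.16). Upstream, Taf3, which encodes a subunit of TFIID and lies 24518 bp away, had 128 RPKM in the spleen and 154 RPKM in the large intestine (0.26, -0.03 to 0.55).

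**Figure D4:**
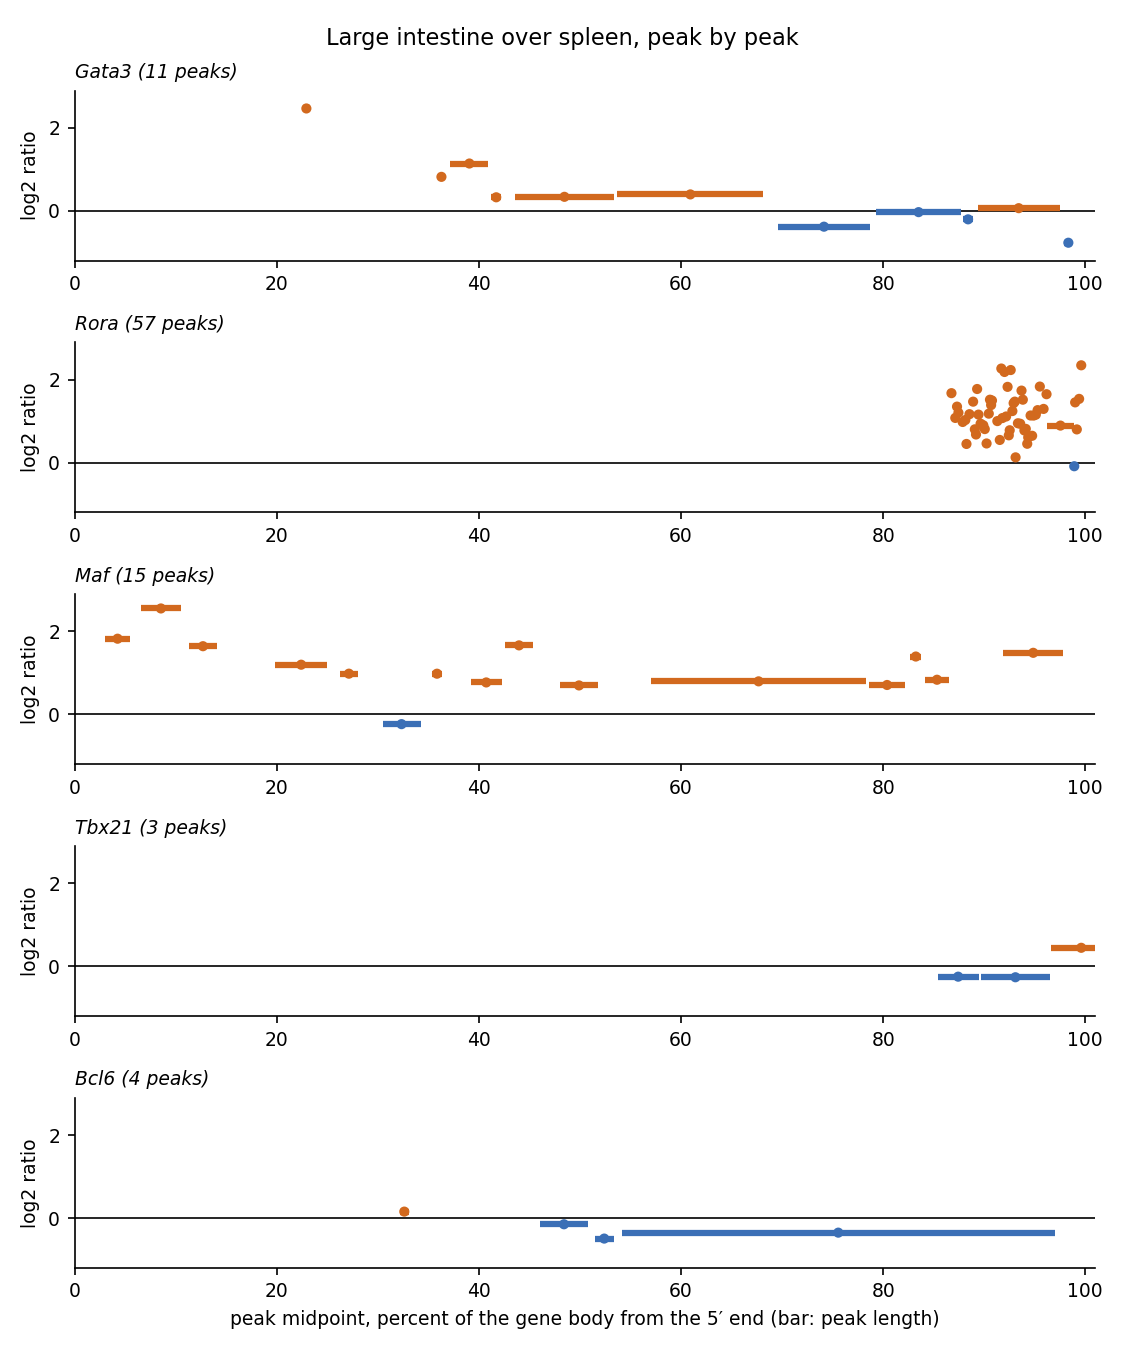
Log2 ratio of large intestine over spleen for each peak, placed by the position of its midpoint in the gene body from the 5′ end in percent, with bars as long as the peak; orange is higher in large intestine and blue higher in spleen. Gata3 goes from 2.47 at the first to -0.77 at the last peak, the Rora peaks are gathered in the last part of the gene between -0.09 and 2.35, and the peaks of Tbx21 and Bcl6 lie between -0.49 and 0.44.

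Tbx21 encodes T-bet, the T-box factor of type 1 helper T cells that also marks Treg cells at sites of type 1 inflammation. Its summed peak value was 32.1 RPKM in the spleen and 31.0 RPKM in the large intestine, a log2 ratio of -0.05. The approximate 95% counting interval, from -0.46 to 0.36, takes in differences of up to 1.28-fold toward the large intestine and down to 0.728 of the spleen value. With 3 peaks over 16.9% of the body, this is the member with the least data behind it.

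The 3 Tbx21 peaks (ENSMUSG00000001444.2, chr11:97098071-97115331, minus strand) lay in the last of 5 equal parts of the gene, over exons 4 to 6. The peak over exon 4 (chr11:97099895-97100589), whose letters are shown above, had 9.95 RPKM in the spleen and 8.28 RPKM in the large intestine (-0.25). The peak over exons 5 and 6 (chr11:97098669-97099859) had 14.2 RPKM and 11.8 RPKM (-0.27). The peak across the end of the gene (chr11:97097623-97098656) had 7.91 RPKM and 11.0 RPKM (0.44), and all 3 intervals included 0. No peak lay within 20 kb of either end. The nearest coding genes were Osbpl7, with 149 RPKM in the spleen and 156 RPKM in the large intestine (0.06), and Tbkbp1, with a single peak of 3.94 RPKM in the spleen and 12.5 RPKM in the large intestine (1.55).

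Bcl6 encodes a zinc finger repressor of the BTB family that directs follicular helper and follicular regulatory T cells. Its summed peak value was 60.2 RPKM in the spleen and 50.5 RPKM in the large intestine, a log2 ratio of -0.25 (interval from -0.62 to 0.12), or 0.840 of the spleen value. The ratio was above that of 19.96% of tested genes. Of the 4 peaks 1 was higher in the large intestine.

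Most of the Bcl6 signal (ENSMUSG00000022508.5, chr16:23965052-23988852, minus strand) lay in one 10194-bp peak over exons 4 to 10 at chr16:23965772-23975965, with the zinc fingers shown above inside it. This peak had 23.9 RPKM in the spleen and 18.7 RPKM in the large intestine, a log2 ratio of -0.35 (-0.50 to -0.20). The peak over exon 3 (chr16:23976757-23977900) had 13.1 RPKM in the spleen and 11.7 RPKM in the large intestine, and the peak in intron 3 (chr16:23976162-23976600) had 13.9 RPKM and 9.73 RPKM. The short peak in intron 1 (chr16:23980978-23981200) had 9.29 RPKM and 10.4 RPKM, and its ratio of 0.16 became negative (-0.18) after correction for G+C content. The long peak was thus lower in the large intestine beyond counting error. The interval of the sum of the 4 peaks, in which each peak counts alike whatever its length, included 0. Per base of the gene body, where the long peak weighs most, the Bcl6 level was 11.2 RPKM (10.4 to 12.04) in the spleen and 8.83 RPKM (8.20 to 9.46) in the large intestine, and these intervals did not overlap. Lpp, the coding gene upstream at 404655 bp, had 46.9 RPKM in the spleen and 31.5 RPKM in the large intestine (-0.57, -1.28 to 0.15), and Rtp2, downstream, had no peak. The 1 peak within 20 kb past the end of Bcl6 had 10.9 RPKM in the spleen and 9.48 RPKM in the large intestine.

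The genes most like each member in level per base over both libraries were, as a description, Rpa1 and Med20 for Gata3, Cnpy4 and Cyp2s1 for Rora, Amh and Osbpl3 for Maf, Rpl39 and Maip1 for Tbx21, and Trnt1 and Fubp1 for Bcl6. Likeness was the Euclidean distance of the log2 levels over the 2 libraries, between 0.01 and 0.09 for these genes.

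Of 27 other transcription factors of T cell lineages, 26 passed the filter and Eomes had no peak. More than 2-fold higher in the large intestine were 3 of them (Id2, Nfil3 and Prdm1) and 3 were more than 2-fold higher in the spleen, against 3.18% and 1.81% of all tested genes. Past 1.5-fold these counts were 7 and 5 of the 26, against 8.97% and 5.57%. Their median log2 ratio was 0.17, against 0.00 over all tested genes. It was 0.09 after correction for G+C content and 0.04 with peaks weighted by length. Id2, an inhibitor of E proteins, had 7.28 RPKM in the spleen and 41.4 RPKM in the large intestine (log2 ratio 2.43). Id2 passed the filter mainly through the large intestine, and Id3, among those higher in the spleen, mainly through the spleen.

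The list held factors on both sides. Prdm1, which encodes the repressor Blimp-1, had 93.9 RPKM in the spleen and 236 RPKM in the large intestine (1.33), and Nfil3, a basic leucine zipper factor, had 28.9 and 89.3 RPKM (1.61). In the other direction, Bach2, a repressor of effector programmes, had 591 RPKM in the spleen and 199 RPKM in the large intestine (-1.57), and Tcf7, which encodes TCF-1 of resting T cells, had 304 and 127 RPKM (-1.25). Id3, a second inhibitor of E proteins, had 22.7 and 7.23 RPKM (-1.59), so the paired inhibitors Id2 and Id3 lay on opposite sides. Few peaks stand behind them, 3 for Id2 (interval from 1.32 to 3.54) and 2 for Id3 (-2.74 to -0.44). The Id3 interval takes in the ratios of Bach2 and Tcf7. Foxp3 itself had 133 RPKM in the spleen and 151 RPKM in the large intestine (0.19, -0.01 to 0.40).

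Of 25 relatives of the members in the same protein families, 16 (64.0%) had no called peak, against 54.3% of all protein-coding genes, among them Gata2, Gata4, Gata5, Gata6, Rorb, Mafa, Tbx1, Tbx2, Tbx3, Tbx5 and Bcl6b. Of the 9 that passed the filter, 1 was more than 2-fold higher in the large intestine (the small MAF protein gene Maff with 11.9 RPKM in the spleen and 29.3 RPKM in the large intestine), and 1 was more than 2-fold higher in the spleen (Gata1, an erythroid factor, with 40.1 and 15.4 RPKM), where the shares over all tested genes were 3.18% and 1.81%. Their median log2 ratio was -0.07, and -0.06 after correction for G+C content. Maff passed the filter mainly through the large intestine and Gata1 mainly through the spleen. Among the relatives of Maf and Bcl6, Mafg (0.46), Mafk (-0.18) and Zbtb7b (-0.07) were within 2-fold.

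Of 23 genes known as targets or partners of the 5 factors, 5 had no peak (Il5, Il13, Il21, Il12rb2 and Ccl5) and 2 were under the filter. Of the other 16, 13 were higher in the large intestine, against 50.7% of all tested genes. More than 2-fold higher in the large intestine were 8 of the 16, against 3.18% of tested genes, and 1 was more than 2-fold higher in the spleen, against 1.81%. Their median log2 ratio was 0.99, against 0.00 over all tested genes. It was 0.79 with no filter, and 0.78 with the large intestine scaled by the median ratio of peaks of 1 kb or more. Il4 (5.51 RPKM in the spleen and 14.5 in large intestine), Il10 (3.68 and 17.9) and Id2 (7.28 and 41.4) are among the 8. These genes passed the filter mainly through the large intestine. Id2, Prdm1 and Klf2 are also in the list of lineage factors, so the counts of these lists are not separate. The 2 genes under the filter, Cxcr3 and Ifng, were both higher in the spleen. This list was chosen with results of these data known, so its counts are a description and no independent evidence of a direction.

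Among GATA3 targets, Il1rl1, which encodes the IL-33 receptor ST2, had 106 RPKM in the spleen and 257 RPKM in the large intestine (log2 ratio 1.27, 22 of 22 peaks higher). Areg, the tissue repair ligand amphiregulin, had 28.1 and 64.8 RPKM (1.19), and Klrg1, a receptor of effector Treg cells, had 26.3 and 70.1 RPKM (1.40). The ratios of these genes were past 2-fold although that of Gata3 was not. Their intervals reached below 2-fold, from 0.98 to 1.56 for Il1rl1, 0.57 to 1.82 for Areg and 0.78 to 2.02 for Klrg1. Ccr8, another listed GATA3 target, was short of 2-fold. It had 1 peak with 10.7 RPKM in the spleen and 19.0 RPKM in the large intestine (0.79, 0.30 to 1.29). Il4, a cytokine gene of type 2 helper T cells, had 1 peak with 5.51 and 14.5 RPKM (1.32, -0.05 to 2.69), an interval that included 0.

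For RORα and c-MAF, the listed partners were all higher in the large intestine where they had a peak. Nr1d1, a clock repressor that competes with ROR factors for sites, had 18.8 RPKM in the spleen and 51.6 RPKM in the large intestine (1.44), and Arntl, which encodes the clock activator BMAL1, had 306 and 410 RPKM (0.42). Il10, the inhibitory cytokine gene driven by c-MAF, had a single peak of 3.68 RPKM in the spleen and 17.9 RPKM in the large intestine (2.13). Icos, a costimulatory receptor gene, had 98.3 and 169 RPKM (0.78).

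For T-bet and BCL6, targets lay on both sides. Cxcr3, the chemokine receptor gene driven by T-bet, and Ifng had 1 peak each and stayed under the filter, with 11.8 RPKM in the spleen and 6.72 RPKM in the large intestine for Cxcr3 and 10.4 and 1.43 RPKM for Ifng. Il18r1, a cytokine receptor gene, had 170 and 252 RPKM (0.56). Among genes tied to BCL6, Prdm1 and Id2 are given above, Cxcr5, the follicle-homing receptor gene, had 32.0 RPKM in the spleen and 23.1 RPKM in the large intestine (-0.46), and S1pr1, the receptor gene for exit from lymphoid organs, had 32.0 and 9.07 RPKM (-1.76). Pdcd1, which encodes PD-1, had 62.1 and 76.2 RPKM (0.29), and Klf2, a factor of recirculating T cells, had 28.9 and 22.4 RPKM (-0.36).

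**Figure D5:**
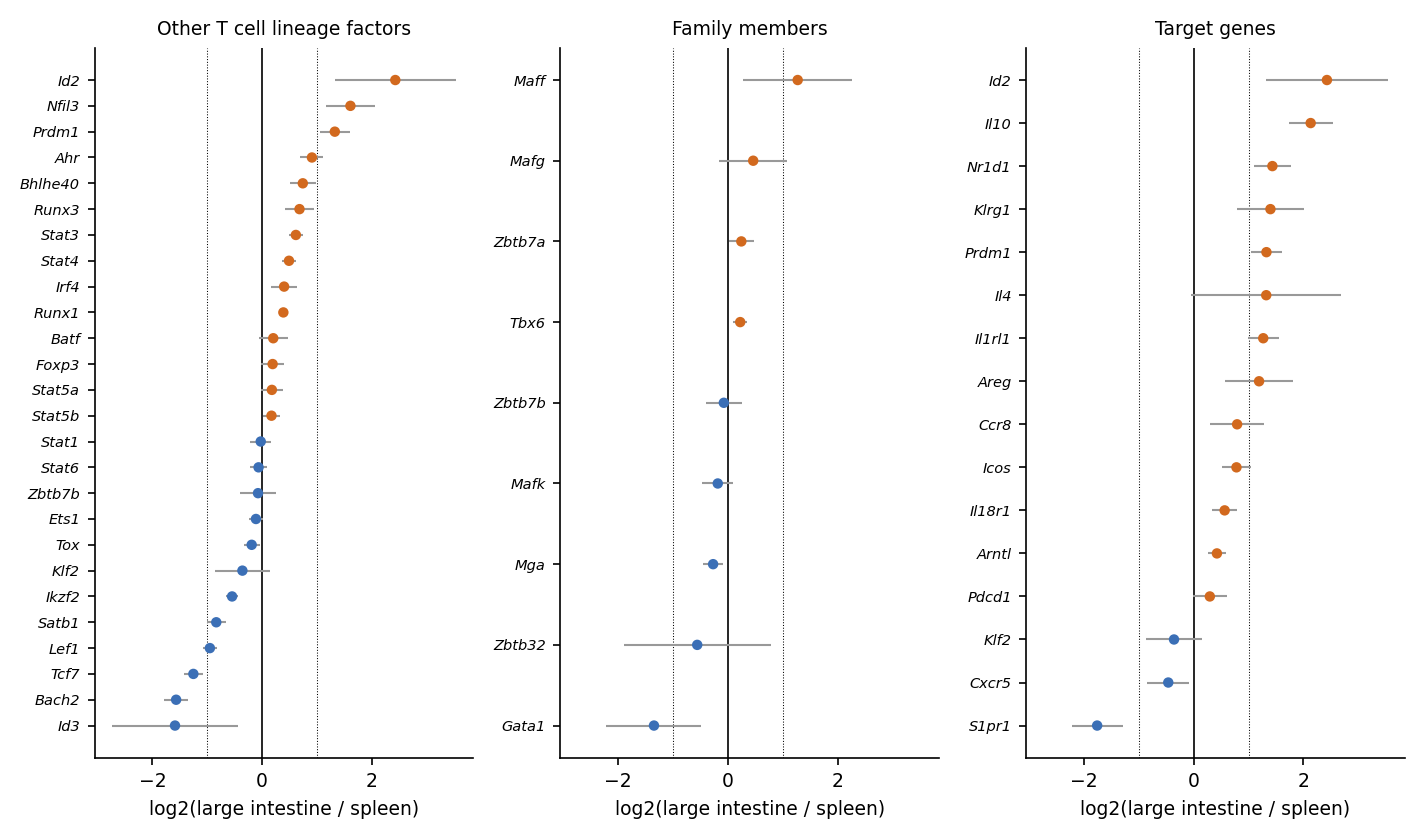
Log2 ratio of large intestine over spleen, with approximate 95% counting intervals, for the genes past the filter in the lists of other T cell lineage factors (26), family members (9) and targets or partners (16); dotted lines mark 2-fold. The first list runs from -1.59 for Id3 to 2.43 for Id2, and 13 of 16 targets lie to the right of 0.

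The G+C content of peaks moved with the ratio across the whole set, with a median log2 ratio from -0.53 in the lowest to 0.35 in the highest of 20 classes of G+C content. Correction for it left 57 of 57 Rora peaks and 14 of 15 Maf peaks higher in the large intestine, and 0 of 4 Bcl6 peaks. The epithelial markers named above were higher in the large intestine library too, and their part in these results was not tested. In the spleen library the summed B cell markers were higher (63.6 against 38.7 RPKM), although Pax5 was higher in the large intestine. The summed CD8 and natural killer markers were also higher in the spleen (21.1 against 9.16 RPKM). The part of these cells in the results was not tested either.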

How the data were processed

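H3K36me3 ChIP-seq was analysed in 1 spleen and 1 large intestine library. The authors sequenced single-end reads of 75 nt, aligned them to mm10 (Bowtie2 is named in the submitters' processing notes), called peaks per tissue with MACS2 against the input, merged them with bedtools, and averaged RPKM coverage from bamCoverage over each merged peak. The deposited values are therefore mean RPKM per peak; they are labelled as raw counts but are not whole. Value times length was a whole multiple (tolerance 0.05) of 1.69 RPKM in 99.97% of spleen peaks checked and of 1.31 RPKM in 99.98% of large intestine peaks; with inferred 20-bp bins this gives the depths. Reads per peak were not recovered, so no count test was run. No chromosome of 21 had a peak past its end in GRCm38.

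The large intestine column was scaled to the spleen total (log2 total ratio 0.05). Peaks with midpoints in GENCODE M21 bodies were summed per gene, and log2 ratios used a pseudocount of 0.5 RPKM, which understates changes of low genes, in genes whose values reached 20 RPKM summed over the libraries. Intervals are approximate, with 200 bp covered per read. The gene sums were run on simulated data drawn with counting error only and the same 200 bp per read. That run checks the calculation and cannot show whether the intervals hold for these libraries. Exon numbers follow the full-length coding transcript of each gene, for Rora the short one. Of the 5 genes, 4 were in the RefSeq promoter table; the distal Rora letters are the same there, and all letters were read from the RefSeq copy of GRCm38. Python 3.11.15, numpy 2.4.6 and pandas 2.3.3 were used. Named genes were the members, the genes of the lists, the nearest coding neighbours, and the 2 genes most like each member in level. Some genes of the lists are not reported here and were left out of their counts. The members and lists were chosen with earlier results of these data known.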

Additional observations from a re-analysis of the deposited data

How the results depend on the processing

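No paired analysis was possible because each tissue had 1 library, and for the same reason no replicate could be left out. Of 82 alternative values, 74 stayed within the counting interval of a ratio, the binomial range of a list median, or 1.5 times a count. The log2 ratio of Rora stayed between 1.06 and 1.21, that of Bcl6 between -0.35 and -0.21 and that of Tbx21 between -0.27 and 0.04. Maf went to 2.56 with its strongest peak alone and otherwise lay between 1.03 and 1.28. Gata3 went to 0.0026 without the peaks that overlap another annotated gene, an alternative added after the data were seen. After correction for G+C content, 3 in place of 5 genes had a correlation of ratio with position below -0.8, also an alternative added after the data were seen. Assigned to the nearest protein-coding transcript start, the Bcl6 peaks went to Gm37419, so no Bcl6 value could be had. Restricted to the 28 member peaks of 1 kb or more, 23 were higher in large intestine, fewer because fewer peaks were counted. Genes more than 2-fold higher in large intestine numbered 469 with no filter and 66 with a filter at 200 RPKM, and those higher in spleen 306 and 36. Both the missing replicates and the inferred depth limit these comparisons: for Tbx21, with about 86.7 reads in spleen and 112 in large intestine by the same reckoning, a difference inside its interval was not detectable at this depth.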
